A study of Homo sapiens with 6 samples.

Results

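The RNAs described here are 10 noncoding RNAs made by RNA polymerase III (Pol III): the 7SL RNAs RN7SL1 and RN7SL2, the 7SK RNA RN7SK, the RNase MRP RNA RMRP, the RNase P RNA RPPH1, the vault RNAs VTRNA1-1, VTRNA1-2 and VTRNA1-3, and the Y RNAs RNY1 and RNY3. They are 10 of the 58174 genes in the deposited expression table and were chosen by name, with their values in the comparison of the groups already known. The values between the groups are therefore given as a description, with no test for these 10 genes. SiHa is an established cell line from a squamous carcinoma of the cervix. Its cells received either GV230-BRCA1 (3 samples, the OV-BRCA1 group) or empty GV230 (3 samples, the NC group) by lipid transfection. RNA was taken 48 h later, and mRNA was purified with capture beads and sequenced. The study's methods call the samples of a group biological replicates, and which steps were separate, such as cultures or transfections, is not stated, so the p-values below measure the spread between these samples, whatever its source.

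Pol III makes short, abundant RNAs that end in a run of U and carry no poly(A) tail. 7SL RNA is the scaffold of the signal recognition particle, which brings ribosomes that make secreted proteins to the endoplasmic reticulum, and 7SK RNA holds the elongation kinase P-TEFb in an inactive particle. RMRP and RPPH1 are the RNA parts of RNase MRP, which cuts precursors of ribosomal RNA, and of RNase P, which trims the 5′ end of precursor tRNA. Vault RNAs sit in the vault particle, and Y RNAs bind the Ro60 and La proteins. Some Pol III genes carry their promoter inside the gene, as the A box and B box of vault RNA genes, whereas the genes for 7SK, RMRP and RPPH1 are driven from sequence ahead of the start.

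RN7SL1 lies at chr14:49586580-49586878 on the plus strand and RN7SL2 at chr14:49862550-49862849 on the minus strand, and the 7SL pseudogene RN7SL4P at chr3:15738515-15738809 on the plus strand. The sequences below are shown because the first set holds no long run of A, and the second carries the promoter motifs inside the RNA. They were read from the transcripts of GENCODE release 29 (GRCh38) and are written as DNA, 5′ to 3′.

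In RN7SK (chr6:52995621-52995948, plus strand), RMRP (chr9:35657754-35658017, minus strand) and RPPH1 (chr14:20343075-20343407, minus strand), the capitals mark the longest run of A. Where several runs share that length, the first is marked. RMRP is printed whole, and of RN7SK and RPPH1 the first 300 bases, which are chr6:52995621-52995920 and chr14:20343108-20343407.
RN7SK: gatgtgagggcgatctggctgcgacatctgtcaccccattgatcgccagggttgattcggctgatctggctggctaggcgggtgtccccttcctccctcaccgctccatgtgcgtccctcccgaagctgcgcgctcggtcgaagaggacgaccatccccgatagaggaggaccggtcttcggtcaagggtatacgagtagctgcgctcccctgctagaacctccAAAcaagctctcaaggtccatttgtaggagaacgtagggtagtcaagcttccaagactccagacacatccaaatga
RMRP: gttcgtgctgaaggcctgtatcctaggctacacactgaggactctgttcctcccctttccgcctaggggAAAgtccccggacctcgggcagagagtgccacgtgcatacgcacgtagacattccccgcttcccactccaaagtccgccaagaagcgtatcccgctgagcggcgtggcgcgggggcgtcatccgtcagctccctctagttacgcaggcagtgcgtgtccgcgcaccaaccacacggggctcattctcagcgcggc
RPPH1: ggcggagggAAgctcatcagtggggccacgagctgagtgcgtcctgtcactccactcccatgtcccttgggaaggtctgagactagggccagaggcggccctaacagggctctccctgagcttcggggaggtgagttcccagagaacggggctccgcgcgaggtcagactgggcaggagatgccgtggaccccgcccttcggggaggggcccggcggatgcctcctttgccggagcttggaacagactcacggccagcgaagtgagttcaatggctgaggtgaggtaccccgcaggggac

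In the vault RNAs VTRNA1-1 (chr5:140711275-140711373, plus strand) and VTRNA1-3 (chr5:140726158-140726246, plus strand), the capitals mark the matches to the core of the A box (GCNNAGNGG) and to the B box (GTTCGANNC).
VTRNA1-1: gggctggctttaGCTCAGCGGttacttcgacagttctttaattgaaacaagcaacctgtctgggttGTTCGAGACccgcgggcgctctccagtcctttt
VTRNA1-3: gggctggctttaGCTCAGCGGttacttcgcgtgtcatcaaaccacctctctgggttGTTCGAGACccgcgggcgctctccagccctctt

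RN7SL1 and RN7SL2 differed by 4 substitutions and 1 inserted base, so that 98.7% of the bases of RN7SL1 were matched. Of the 100-base words of RN7SL1, 149 of 200 (74.5%) also occurred in a gene elsewhere, and 165 of 201 (82.1%) did for RN7SL2. RN7SK shared 119 of 229 such words (52.0%) with its pseudogenes, whereas RMRP shared 0 of 165 and RPPH1 0 of 234. Each count leaves out genes annotated at the same place as the RNA counted. That of RN7SL2 thus includes AL139099.4, which lies at RN7SL1. RMRP has a second entry there, and AL355075.4 overlaps RPPH1 on the same strand.

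The longest run of A was 4 bases in RN7SL1 and RN7SL2, 3 in RN7SK and RMRP, and 2 in RPPH1. A run of at least 5 A was found in 2940 of the 7515 transcripts of 250 to 350 bases in the annotation (39.1%). Both box motifs matched in all 3 vault RNAs, with the A box core from base 13 in each and the B box from base 67 in VTRNA1-1 and base 57 in VTRNA1-2 and VTRNA1-3. The motifs were searched on the strand of the RNA, on which 1.97% of the 4408 transcripts of 80 to 120 bases held the A box core and 0.204% the B box. The A box core also matched 2 times in RMRP, as it did at least once in 9.58% of transcripts of 250 to 350 bases, and no B box was found outside the vault RNAs among the members. RNY1, RNY3, VTRNA1-1 and VTRNA1-2 ended in 4 T, and VTRNA1-3 in 2. Of the longer RNAs, RN7SL2 ended in 2 T, RN7SL1 and RN7SK in 1, and RMRP and RPPH1 in 0. These are the ends of the annotated transcripts.

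The table holds FPKM, fragments scaled to transcript length and to the mapped fragments of a sample, and no counts. The depth, estimated from what 1 fragment is worth in low values, was 14.16 to 16.71 M fragments in the OV-BRCA1 samples and 16.05 to 20.21 M in the NC samples. BRCA1 itself measured 35.7, 40.8 and 34.9 FPKM in the OV-BRCA1 samples, in the order of their replicate numbers, and 20.1, 14.9 and 21.7 FPKM in the NC samples, and the groups did not overlap (log2 fold change 0.95 ± 0.14 SE, limma adjusted p = 0.00373). The epithelial keratins KRT8 (354 to 385 FPKM under OV-BRCA1 and 316 to 339 under NC) and KRT18 (249 to 256 and 188 to 199) were present in all samples, EPCAM was low (5.93 to 7.65 and 2.11 to 3.01), and KRT5, KRT19 and CDH1 were below 1. The 6 epithelial markers summed to 609 to 650 FPKM under OV-BRCA1 and 508 to 542 under NC. The leukocyte marker PTPRC and the endothelial marker VWF were listed at 0 in all 6 samples, and the other endothelial marker, PECAM1, ran from 0.730 to 1.45 FPKM under OV-BRCA1 and from 0.629 to 0.788 under NC. The summed leukocyte markers ran from 6.78 to 9.10 FPKM under OV-BRCA1 and from 18.0 to 20.5 under NC, nearly all of it CD14, and the summed fibroblast markers from 3.03 to 3.56 and from 5.97 to 6.61. Mitochondrial genes took 14.8% to 17.2% of all FPKM in the OV-BRCA1 group and 21.0% to 23.2% in the NC group. The part of these shifts in the results below was not tested.

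The 5 longer RNAs, of 264 to 333 bases, were abundant in the OV-BRCA1 group and 9.21 to 49.8 times lower in the mean of the NC group. RN7SL1 and RN7SL2 were the highest in the OV-BRCA1 group, followed by RMRP, RN7SK and RPPH1. The 5 short RNAs, of 89 to 113 bases, reached at most 1.33 FPKM in any sample. In bulk RNA, more of an RNA per cell and a larger share of cells that hold it cannot be told apart.

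RN7SL1 reached 161, 204 and 154 FPKM in the OV-BRCA1 samples, again by replicate number, against 16.0, 17.0 and 23.4 in the NC samples. The means were 173 ± 27.3 and 18.8 ± 3.99 FPKM (SD, n = 3), a ratio of 9.21 and a log2 fold change of 3.14 on the log2(FPKM + 1) scale. The lowest OV-BRCA1 sample was 6.58 times the highest NC sample, so the groups lay far apart.

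RN7SL2, the near-identical partner on the other strand of chromosome 14, stood at 151, 203 and 154 FPKM in the OV-BRCA1 samples and at 4.004, 3.87 and 9.75 in the NC samples. The means were 169 ± 29.02 and 5.87 ± 3.36 FPKM, with a ratio of 28.8 and a log2 fold change of 4.72. Its lowest OV-BRCA1 sample was 15.4 times its highest NC sample. The pair did not keep one ratio: RN7SL1 over RN7SL2 was 1.07, 1.01 and 0.996 in the OV-BRCA1 samples and 4.004, 4.39 and 2.40 in the NC samples. The 2 RNAs differ by a few bases, and how shared reads were divided is not given in the sources used here, so their sum is the firmer value. That sum was 308 to 407 FPKM in the OV-BRCA1 samples and 20.04 to 33.1 FPKM in the NC samples.

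RN7SK stood at 23.5, 29.9 and 30.003 FPKM in the OV-BRCA1 samples and at 2.41, 1.66 and 3.81 in the NC samples. Its means were 27.8 ± 3.70 and 2.63 ± 1.09 FPKM, with a ratio of 10.6 and a log2 fold change of 3.02. All OV-BRCA1 samples lay above all NC samples, by at least 6.17 times.

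RMRP stood at 28.5, 34.4 and 32.5 FPKM in the OV-BRCA1 samples and at 0, 0.626 and 1.29 in the NC samples. The means were 31.8 ± 2.98 and 0.638 ± 0.645 FPKM, with a ratio of 49.8 and a log2 fold change of 4.40. Its ratio of means was the largest of the members. Its log2 fold change was below that of RN7SL2 with a pseudocount of 1 and above it with 0.1 (6.09 against 4.95). The NC values of RMRP correspond to an estimated 0, 3.13 and 6.88 fragments against 121.4 to 152 in the OV-BRCA1 samples. A second RMRP entry at the same place, 268 bases long and annotated as a lincRNA, was listed at 0 in all 6 samples.

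RPPH1 stood at 15.9, 15.6 and 13.3 FPKM in the OV-BRCA1 samples and at 0.193, 0.815 and 1.66 in the NC samples. Its means were 14.9 ± 1.46 and 0.889 ± 0.736 FPKM, with a ratio of 16.8 and a log2 fold change of 3.15. The estimated fragments were 62.5 to 86.8 in the OV-BRCA1 samples and 1.03, 5.14 and 11.2 in the NC samples, so the NC level rests on few fragments.

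Among the short members, VTRNA1-3 stood at 0.511, 1.33 and 0.665 FPKM in the OV-BRCA1 samples and was listed at 0 in the 3 NC samples. These values are worth an estimated 0.733 to 1.98 fragments, and no fold change is given against 0. RNY1 went the other way, at 0.276, 0 and 0.311 FPKM in the OV-BRCA1 samples against 0.371, 0.481 and 0.734 in the NC samples. None of these RNY1 values was worth more than an estimated 1.68 fragments, so that a difference was not detectable at this depth. VTRNA1-2 was above 0 in NC sample 2 alone (0.272 FPKM), and RNY3 in OV-BRCA1 sample 1 alone (0.188 FPKM). VTRNA1-1 was listed at 0 in all 6 samples.

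**Figure D1:**
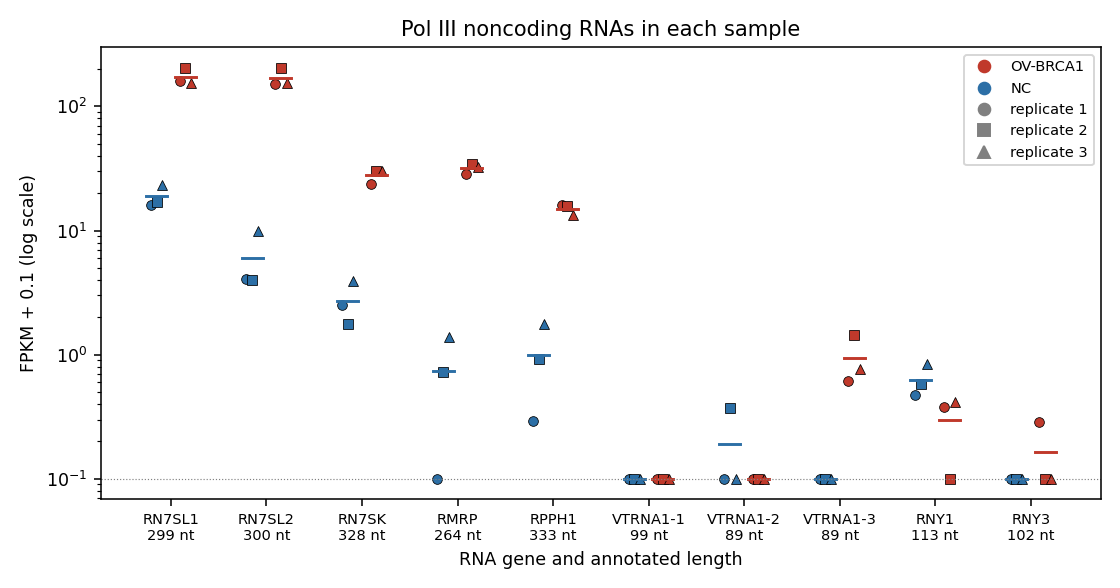
FPKM + 0.1 on a log scale for the 10 RNAs in each sample, with OV-BRCA1 in red, NC in blue, the symbol giving the replicate and bars at group means. The dotted line is a value of 0. For the 5 longer RNAs the red points lie above all blue points, with RMRP at 28.5 to 34.4 against 0 to 1.29 FPKM, and the 5 short RNAs lie near the dotted line.

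Of the 10 RNAs, 6 passed the filter on low values (0.5 FPKM or more in 3 or more samples), namely the 5 longer RNAs and VTRNA1-3. RMRP, RPPH1 and VTRNA1-3 would not have passed on their NC values alone, so the filter bore on their direction. All OV-BRCA1 samples lay above all NC samples in the same 6, and in 23.4% of the 16321 genes that passed the filter. The reverse, as in RNY1, held for 27.4% of those genes. Since the genes were chosen with this comparison known, nothing is read from that difference. VTRNA1-3 was just inside the filter, with 0.511 FPKM as its lowest OV-BRCA1 value, and RNY1 just outside it, with 0.371 as its lowest NC value. By log2 fold change among all genes tested, RN7SL2 ranked 1, RMRP 2, RPPH1 34, RN7SL1 35 and RN7SK 37. These ranks hold for a pseudocount of 1, and the order of the 5 RNAs turns with a pseudocount of 0.1.

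Per length, the order within the OV-BRCA1 group was RN7SL1 and RN7SL2, then RMRP and RN7SK, then RPPH1. RN7SL1 and RN7SL2 overlapped, as did RMRP (28.5 to 34.4 FPKM) and RN7SK (23.5 to 30.003 FPKM), while RPPH1 lay below both. In the NC group RN7SL1 lay above RN7SL2, and RN7SL2 just above RN7SK, the lowest RN7SL2 value being 3.87 and the highest RN7SK value 3.81 FPKM. RPPH1 and RMRP overlapped at the lower end. RMRP was thus above RN7SK in the mean of the OV-BRCA1 group (31.8 against 27.8 FPKM) and below it in the mean of the NC group (0.638 against 2.63 FPKM).

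Together the 10 RNAs made up 381, 488 and 385 FPKM in the OV-BRCA1 samples and 23.01, 24.7 and 40.6 in the NC samples. As a share of all FPKM this was 0.0832%, 0.106% and 0.0834% against 0.00478%, 0.00504% and 0.00849%. 7SL RNA was most of it in both groups, at 80.1% to 83.4% and 81.5% to 87.1% of the sum.

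Within the NC group, sample 3 was the highest for each of the 5 longer RNAs. The highest NC sample was 1.46 times the lowest for RN7SL1, 2.52 times for RN7SL2, 2.30 times for RN7SK and 8.61 times for RPPH1. Within the OV-BRCA1 group these spreads were narrower, from 1.20 times for RPPH1 to 1.35 times for RN7SL2. Sample 2 was the highest there for RN7SL1, RN7SL2 and RMRP, sample 3 for RN7SK and sample 1 for RPPH1. Without NC sample 3 the ratio of the means went from 49.8 to 101.6 for RMRP, from 16.8 to 29.6 for RPPH1 and from 28.8 to 43.0 for RN7SL2, and without NC sample 1 that of RMRP went to 33.2. The ratios of RN7SL1 and RN7SK stayed between 8.58 and 13.7 without any 1 NC sample. NC sample 3 also had the largest estimated depth, and the part of depth in its higher values was not tested.

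The other small RNA genes of the annotation were taken by length. Of the genes of up to 120 bases, 154 of 2959 passed the filter, and their class summed to 439 to 486 FPKM in the OV-BRCA1 samples and 454 to 467 FPKM in the NC samples. The class of 201 to 400 bases, which holds the 5 longer RNAs, summed to 505 to 638 FPKM and to 104 to 133. Without the members it summed to 125 to 151 FPKM against 81.8 to 92.7, and without their copies as well to 54.7 to 59.0 against 46.03 to 50.5. Leaving out the members and their copies, 8 of 149 tested genes of up to 120 bases were higher with OV-BRCA1 and 8 lower (adjusted p below 0.05), 19 of 112 genes of 121 to 200 bases were higher and 8 lower, and 3 of 15 genes of 201 to 400 bases were higher and 1 lower. Over all genes tested, 16.4% were higher and 18.9% lower by that criterion. The median log2 fold changes of these 3 classes were -0.04, 0.03 and -0.07, and the middle class summed to 430 to 480 FPKM under OV-BRCA1 and 360 to 392.4 under NC.

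**Figure D2:**
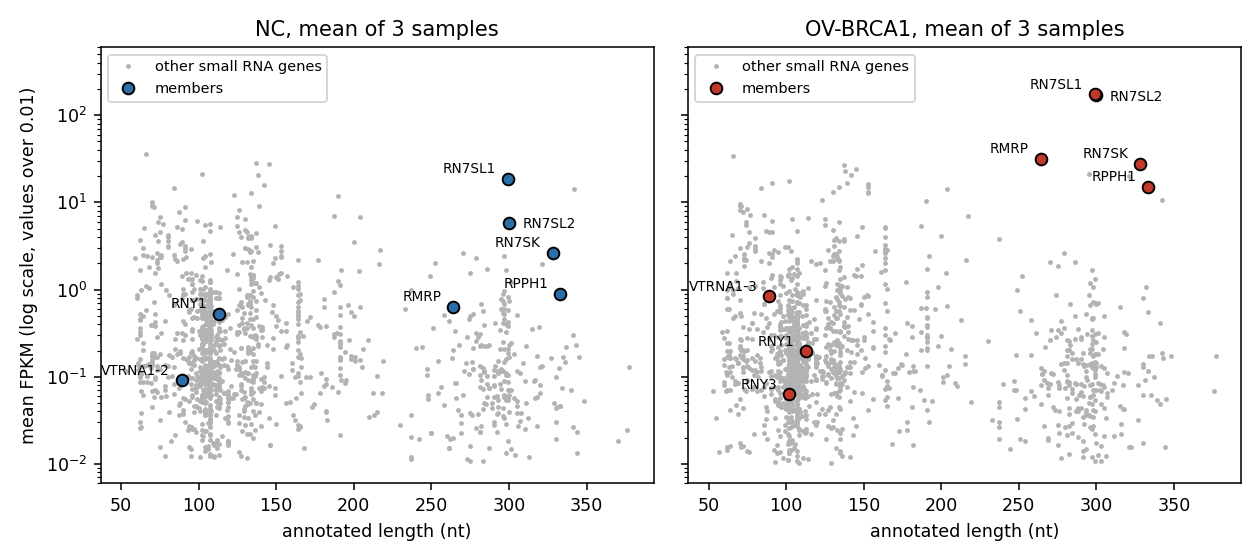
Mean FPKM (log scale, values over 0.01) against annotated length in bases for small RNA genes (grey) and the members (coloured), in the NC group on the left and the OV-BRCA1 group on the right. From left to right the 5 RNAs of 264 to 333 bases go from 0.638 to 18.8 FPKM up to 14.9 to 173 FPKM, whereas the short members stay below 1 FPKM.

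The genome holds 679 further 7SL copies in the annotation, of which 220 were above 0 in some sample and 19 passed the filter, RN7SL2 included. RN7SL4P stood at 18.2, 27.3 and 18.2 FPKM in the OV-BRCA1 samples and at 0.552, 0.386 and 0.867 in the NC samples. RN7SL5P stood at 16.4, 23.8 and 20.003 FPKM against 1.40, 2.34 and 2.17. Both pseudogenes followed the members, and both share a long stretch with them: 192 of the 295 bases of RN7SL4P (65.1%) are those of RN7SL2, and 209 of the 321 bases of RN7SL5P (65.1%) those of RN7SL1.

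RN7SL3, another 7SL gene, differs from RN7SL1 at 7 bases and stood at 1.04, 1.81 and 1.16 FPKM against 0.00701, 0.0404 and 0.216. It was far below RN7SL1 and RN7SL2 in all samples. Because these 3 copies can draw reads from the members, they get no test of their own. Of the 19 copies, RN7SL2, RN7SL3, RN7SL4P and RN7SL5P were the 4 in which all OV-BRCA1 samples lay above all NC samples. The 2 copies RN7SL832P and RN7SL574P lay below, beside 23.4% above and 27.4% below of all genes tested. RN7SL3 and RN7SL4P would not have passed the filter on their NC values alone. RN7SL832P and RN7SL574P would not have passed on their OV-BRCA1 values alone. The filter thus bore on the direction of these copies. RN7SL832P is annotated at 1756 bases. The more diverged copies RN7SL608P, RN7SL834P and RN7SL381P overlapped between the groups. Of 293 copies of 7SK, 5 passed the filter, and in RN7SKP203 alone the groups did not overlap (1.18, 0.955 and 1.07 FPKM against 0, 0.162 and 0.213). RN7SKP203 would not have passed the filter on its NC values alone.

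**Figure D3:**
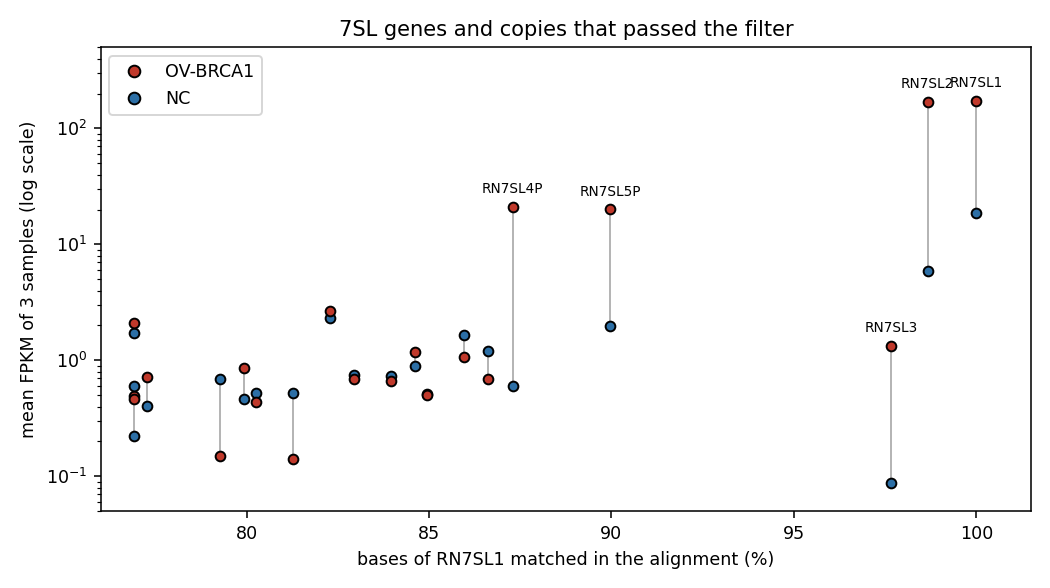
Mean FPKM (log scale) of the 7SL genes and copies that passed the filter, against the share of RN7SL1 bases each matched in an alignment, with OV-BRCA1 in red, NC in blue and a line joining the means of 1 gene. RN7SL1, RN7SL2, RN7SL3, RN7SL4P and RN7SL5P have long lines with red above blue, and the other copies lie below 3 FPKM in both groups.

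Of the other Pol III RNAs, 6 of 28 gene entries passed the filter. One was the 5S ribosomal RNA gene RNA5S6, at 1.95 ± 0.895 FPKM against 0.521 ± 0.398 in the NC samples (log2 fold change 0.94 ± 0.27 SE, limma adjusted p = 0.0398). RNA5S6 would not have passed the filter on its NC values alone (0.253, 0.333 and 0.978 FPKM), so the filter bore on its direction. Its values were worth an estimated 1.80 to 5.48 fragments in the OV-BRCA1 samples and 0.484 to 2.35 in the NC samples. Its call was lost without OV-BRCA1 sample 1 or 2 or NC sample 1 or 2, with an adjusted p of up to 0.111. The U6 spliceosomal RNA genes RNU6-8, RNU6-1 and RNU6-2 had log2 fold changes of 0.47, 0.30 and -0.22, and BCYRN1, the gene of the neuronal BC200 RNA, had 0.12, and none of these 4 passed the test. RNA5S6 and the U6 genes have near-identical copies, so single entries are uncertain.

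Of the genes within 1 kb of a member, 4 were tested, of which 3 were lower in the OV-BRCA1 group and 1 did not pass, beside 18.9% lower of all genes tested. RPS29, a ribosomal protein gene that overlaps RN7SL1 on the opposite strand, was lower in the OV-BRCA1 group (293 ± 25.2 against 385 ± 23.8 FPKM, log2 fold change -0.40, limma adjusted p = 0.0102). PARP2, a DNA repair enzyme gene that lies 175 bases from RPPH1 on the opposite strand, was lower as well (28.7 ± 1.54 against 42.9 ± 2.51 FPKM, log2 fold change -0.57, adjusted p = 0.00148). Next to RMRP, ARHGEF39 on the same strand was lower (log2 fold change -0.72, adjusted p = 0.00314) and CCDC107 on the opposite strand did not pass the test (-0.18, adjusted p = 0.206). Whether reads were counted by strand is not given in the sources used here, so reads of RN7SL1 and RPS29 may not be told apart where they overlap. GSTA4, near RN7SK, stayed below 0.29 FPKM, and GHET1, near RNY1, below 0.44. The noncoding entries AL139099.4 at RN7SL1, AL627171.1 and AL627171.2 at RN7SL2, and AL355075.1 at RPPH1 stayed below 0.83 FPKM, and RF00100 at RN7SK and AL355075.4 at RPPH1 were listed at 0.

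The genes of the Pol III machinery included higher and lower ones. All 37 entered the fit; 10 rose and 7 fell with OV-BRCA1 at an adjusted p below 0.05, beside 16.4% and 18.9% of all genes tested, or 35.3% in either direction. Their median log2 fold change was 0.06, beside -0.04 over all genes tested. One was a DEG (adjusted p below 0.05 and absolute log2 fold change above 1), as were 3.99% of all genes tested, 2.89% as higher and 1.1% as lower. The 17 genes that passed became 11 without NC sample 1, 11 without NC sample 2 and 10 without NC sample 3.

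That DEG was POLR3G, one of the 2 forms of a subunit that is peculiar to Pol III. POLR3G stood at 4.69, 5.40 and 3.80 FPKM in the OV-BRCA1 samples and at 2.34, 1.55 and 1.39 in the NC samples (log2 fold change 1.03 ± 0.17 SE, limma adjusted p = 0.00490). Its alternative form POLR3GL went the other way, at 9.64, 9.63 and 6.85 against 14.5, 13.8 and 14.5 FPKM (log2 fold change -0.67 ± 0.13 SE, adjusted p = 0.00968). POLR3G over POLR3GL was 0.486, 0.561 and 0.555 in the OV-BRCA1 samples and 0.162, 0.112 and 0.0960 in the NC samples, so that POLR3GL remained the higher of the pair in all 6.

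Of the other Pol III subunits, POLR3C (24.4 ± 0.274 against 15.0 ± 0.651 FPKM, log2 fold change 0.67, limma adjusted p = 0.000396) and POLR3K (0.62) were higher and POLR3E (-0.20) was lower. The catalytic subunit gene POLR3A had 0.24 and did not pass (adjusted p = 0.0632). Of the 7 subunits shared with other polymerases, POLR2E (-0.59), POLR2F (-0.58) and POLR2L (-0.33) were lower. The promoter factors split too. In TFIIIB, BDP1 (0.41) and BRF2 (0.50), the form used at 7SK, RMRP and RPPH1 genes, were higher, whereas BRF1, the form used at genes with internal promoters, had 0.03 and did not pass. In TFIIIC, GTF3C4 (0.46) was higher and GTF3C5 (-0.47) and GTF3C6 (-0.22) lower. SNAPC1 (0.50), of the complex that binds ahead of the 7SK, RMRP and RPPH1 genes, was higher, whereas SNAPC2 (-0.10), SNAPC3 (0.12), SNAPC4 (-0.11) and SNAPC5 (-0.09) did not pass. POU2F1 (0.36) and MAF1 (0.24), the repressor of Pol III, were higher. Several of these calls were lost when 1 sample was left out. POLR3E and GTF3C6 lost theirs in all 6 such fits (limma adjusted p up to 0.0938 and 0.121), MAF1 in all but that without OV-BRCA1 sample 2 (up to 0.108) and POU2F1 in all but that without OV-BRCA1 sample 1 (up to 0.119). BDP1 lost its call without OV-BRCA1 sample 1 or any 1 NC sample (up to 0.0703), POLR2F without sample 2 or 3 of either group (up to 0.0727), and GTF3C5 without OV-BRCA1 sample 3 or NC sample 2 (up to 0.0579).

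The protein partners are 36 genes of proteins that bind or process these RNAs or work with their particles. Of these, 7 were higher, 5 lower and 24 did not pass, beside the 16.4% higher and 18.9% lower of all genes tested. Their median log2 fold change was 0.04. The 5 lower genes became 2 without any 1 OV-BRCA1 sample or without NC sample 1, and 3 without NC sample 2 or 3. None was a DEG, and at an unadjusted limma p below 0.05 the counts were 11 higher and 8 lower.

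For 7SL RNA, the signal recognition particle protein SRP72 (log2 fold change 0.42) and the receptor subunit SRPRB (33.1 ± 1.16 against 21.7 ± 0.830 FPKM, log2 fold change 0.59, limma adjusted p = 0.000648) were higher. The Alu domain proteins SRP9 and SRP14 had -0.19 and -0.53 and did not pass, with SRP9 at 120 ± 63.5 and 133 ± 64.9 FPKM. For 7SK RNA, HEXIM1, which inhibits P-TEFb within the 7SK particle, was lower (33.8 ± 1.11 against 47.6 ± 0.590 FPKM, log2 fold change -0.48, adjusted p = 0.000763), as were the capping enzyme MEPCE (-0.41) and the kinase CDK9 (-0.22). LARP7, which holds the 3′ end of 7SK, had 0.19 and did not pass. No tested gene of the 7SK particle was higher by the adjusted p, and 1 was at an unadjusted p below 0.05, beside the ratio of 10.6 for RN7SK.

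RNase P and RNase MRP share most of their proteins. RPP25 (51.8 ± 3.36 against 37.7 ± 0.595 FPKM, log2 fold change 0.45, limma adjusted p = 0.00243), RPP30 (0.34) and RPP40 (0.68) were higher, POP5 (-0.39) was lower, and 7 of the 11 did not pass. Of the vault proteins, PARP4 was higher (0.48) and the major vault protein MVP had -0.18 and did not pass. The Ro60 gene, TROVE2, was higher (0.45), and SSB, the gene of La, had -0.09 and did not pass. Of 4 genes of 3′ end turnover, the poly(A)-specific ribonuclease gene PARN was lower (-0.27). Here too calls were lost when 1 sample was left out. POP5 and MEPCE lost theirs in all such fits but that without NC sample 2 (limma adjusted p up to 0.101 and 0.131), and CDK9 in all but that without NC sample 3 (up to 0.131). TROVE2 lost its call without OV-BRCA1 sample 1 or 3 or NC sample 2 (up to 0.0700), and PARN without NC sample 2 (0.0533).

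**Figure D4:**
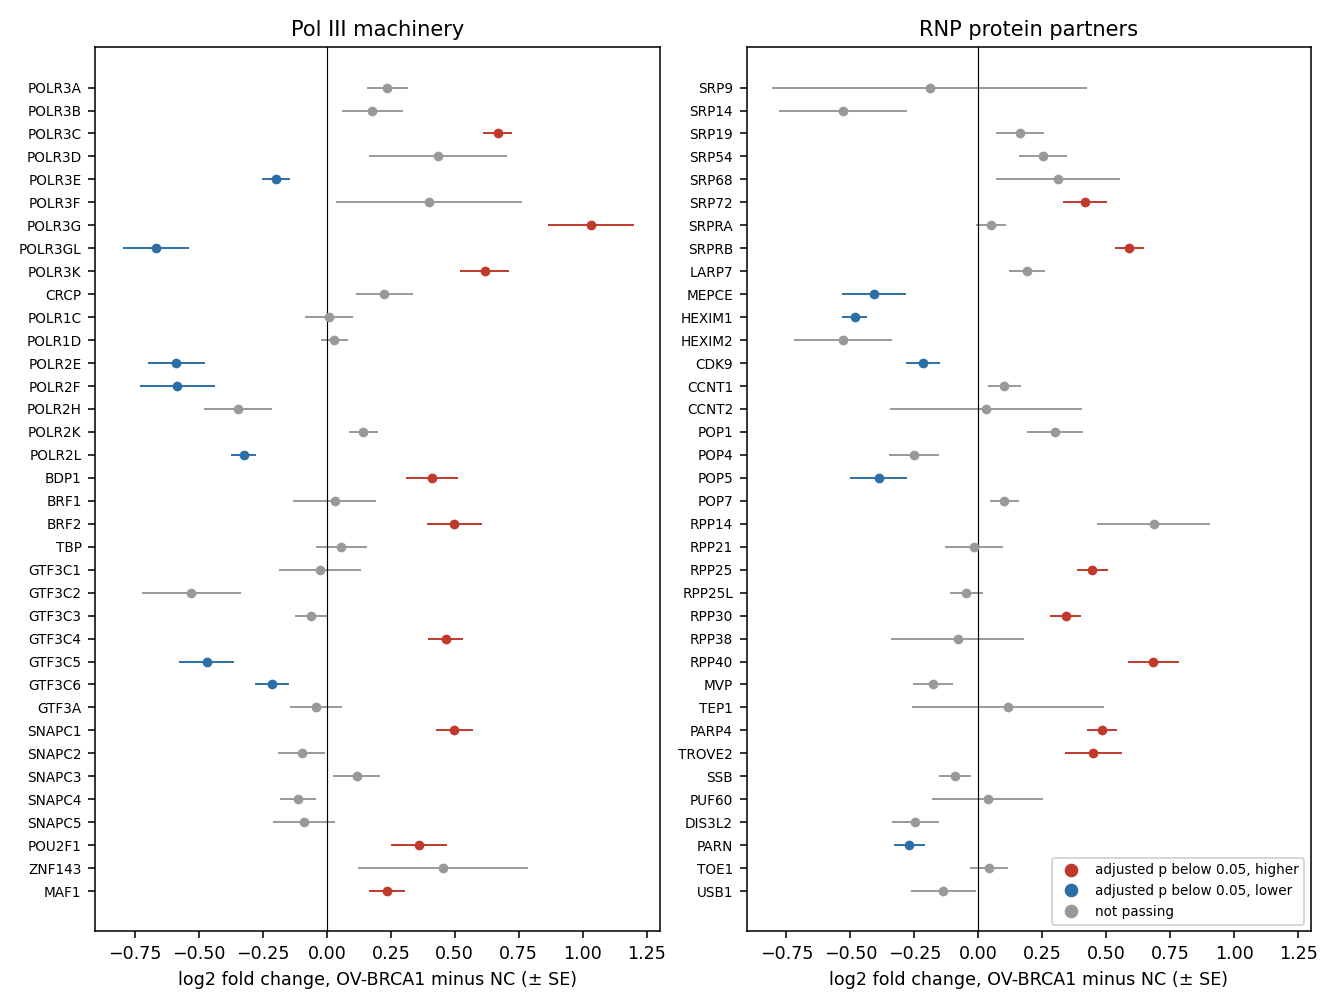
Log2 fold change of FPKM + 1 (OV-BRCA1 minus NC) with its SE. The left panel holds 36 of the 37 genes of the Pol III machinery and the right panel the 36 genes of the protein partners. Red and blue mark genes higher and lower at an adjusted p below 0.05, and grey the rest. Both panels scatter around 0, and POLR3G at 1.03 is the furthest point.

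Genes of Pol II whose usual RNA has no poly(A) tail were also compared. Of 147 gene entries 85 were tested, 65 were higher and 20 did not pass, beside 16.4% higher and 18.9% lower of all genes tested, with a median log2 fold change of 0.88 beside -0.04 over all genes tested. No gene of the list was lower by the adjusted p, and 1 was at an unadjusted limma p below 0.05. The list was written with this direction known, so it is no independent evidence of it. The filter also bore on the direction of some of the 65. The histone entries HIST2H2AB, HIST2H2BB and HIST1H2AH, for example, would not have passed it on their NC values alone.

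Among the spliceosomal RNAs of Pol II, 8 of 12 tested genes were higher, 7 of them as DEGs. Of these DEGs, RNU1-1, RNU1-4, RNVU1-7 and RNVU1-18 would not have passed the filter on their NC values alone. The filter thus bore on their direction and on which U1 genes entered the sum that follows. The 8 tested U1 genes summed to 23.1, 23.9 and 32.5 FPKM in the OV-BRCA1 samples and to 4.43, 5.23 and 10.8 in the NC samples. NC sample 3 was the highest of the NC group in 7 of these 8, as it was for the 5 longer Pol III RNAs, but in 19 of the 64 tested histone entries, whose NC sums were 2514, 2475 and 2497 FPKM. RNU5A-1, a U5 gene, rose from 0.163 ± 0.0158 to 2.13 ± 1.36 FPKM (log2 fold change 1.35, limma adjusted p = 0.0121). Its NC values were worth an estimated 0.324 to 0.381 fragments each and its OV-BRCA1 values 2.30 to 6.06, so this call rests on few fragments. RNU5A-1 would also not have passed the filter on its NC values alone, so the filter bore on its direction. U1 has many near-identical copies, so the sum is the firmer value.

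The 3 tested U3 genes were higher, with SNORD3A, the U3 RNA of ribosome assembly, at 22.7, 29.4 and 28.3 FPKM against 5.81, 15.8 and 4.84 (log2 fold change 1.66, limma adjusted p = 0.0193). SNORD3A lost its call without sample 2 or 3 of the OV-BRCA1 group or sample 1 or 3 of the NC group (adjusted p up to 0.0608), SNORD3C without sample 1 or 2 of either group (up to 0.0703) and SNORD3D without NC sample 3 (0.0516). Of the 64 tested entries of clustered histones, whose usual mRNA ends in a stem-loop, 54 were higher, with a median of 0.88. These entries include 5 named as pseudogenes, and 13 of the 50 with a single annotated transcript are over 1 kb long. HIST1H4H (229 ± 3.27 against 47.3 ± 1.599 FPKM, log2 fold change 2.25) and HIST1H2BF (18.0 ± 1.03 against 3.14 ± 0.187 FPKM, log2 fold change 2.20) moved most of those named here. None of the 6 tested scaRNA genes, which guide RNA modification in Cajal bodies and are mostly cut from introns, passed the adjusted p, and at an unadjusted limma p below 0.05 the count was 1, lower. The 5 longer members had log2 fold changes of 3.02 to 4.72, beside 2.25 as the highest of this list. How far the capture of RNA without a tail differed between the libraries was not tested, and with 1 capture per sample it cannot be told apart from a change in the RNA.

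**Figure D5:**
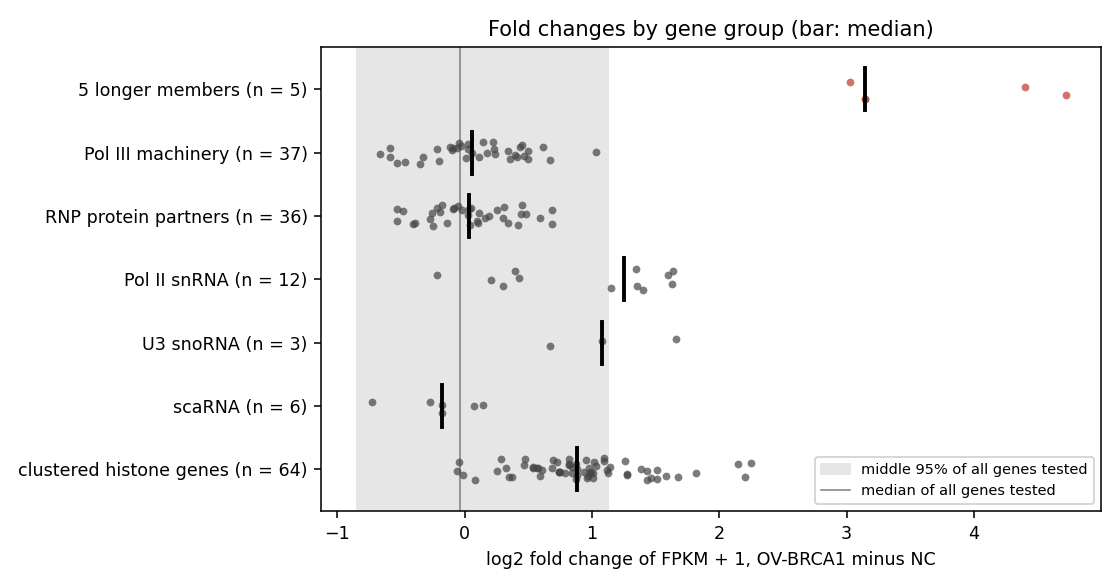
Log2 fold change of FPKM + 1 (OV-BRCA1 minus NC) for single genes of each group, with black bars at medians; the grey band holds the middle 95% of all genes tested, from -0.85 to 1.13, and the grey line their median. The 5 longer members lie furthest to the right, the snRNA, U3 and histone genes lie mostly to the right of the line, and the Pol III machinery, the protein partners and the scaRNA genes lie around it.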

How the data were processed

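The labels gave 3 OV-BRCA1 and 3 NC samples of SiHa cells, with mRNA sequenced 48 h after transfection. The authors deposited FPKM values for 199167 transcripts of 58174 genes. The submitters' processing notes name FastQC, HISAT2 and hg38. The counting tool, annotation release and use of strand are not given in the sources used here. The authors tested counts with DESeq, which FPKM does not allow.

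Transcript FPKM was summed per gene and named by GENCODE release 29, in which 338 gene identifiers had no name. Genes that reached an FPKM of 0.5 in 3 or more samples (16321) were tested with limma 3.58.1 (trend, R 4.3.3) on log2(FPKM + 1), in all 6 samples without covariates. P-values were adjusted by Benjamini-Hochberg over all genes tested. A pseudocount of 1 understates the change of low genes. DEGs passed an adjusted p of 0.05 with a log2 fold change beyond 1 in either direction. The script was tested on simulated data. Depth was estimated, with 30.9% to 35.5% of low values within 0.1 of a whole fragment, so whole reads were not recovered. Estimated fragments are FPKM times length and estimated depth.

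The members and gene lists were chosen with earlier results of these data known. Named were all members, of each list every DEG and the 3 smallest adjusted p-values in each direction, the highest tested entries of the other Pol III RNAs and pseudogenes, and every gene within 1 kb of a member. Further list genes, such as POLR3A, BRF1 and LARP7, the copies RN7SL832P, RN7SL574P and RN7SKP203, and those given by fold change alone, were named after their values were seen to describe each complex. Of the DEGs without a poly(A) tail, only examples are printed. The alternatives were a pseudocount of 0.1, no filter, a minimum FPKM of 1, each sample left out, the replicate number as a block, 2 other scalings and, for the members, the highest transcript. One gene of the Pol III machinery and some sequences are not reported here. Sequences were compared with Biopython 1.88 by global alignment and by shared words of 100 bases.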

Additional observations from a re-analysis of the deposited data

How the results depend on the processing

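No member that passed the filter reversed under an alternative, which says nothing of stability for VTRNA1-3, listed at 0 in the NC group, or for RMRP and RPPH1, which would not have passed on their NC values alone. With a pseudocount of 0.1 the log2 fold changes were 6.09 for RMRP, 4.95 for RN7SL2, 4.27 for RPPH1, 3.42 for RN7SK and 3.21 for RN7SL1, so that RMRP passed RN7SL2 and RN7SK passed RN7SL1. The fitted change of VTRNA1-3 is set by the pseudocount and is not given. Leaving out each sample in turn gave 3.02 to 3.30 for RN7SL1, 4.52 to 5.10 for RN7SL2, 2.82 to 3.25 for RN7SK, 4.08 to 4.68 for RMRP and 2.85 to 3.43 for RPPH1.

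The number of DEGs over all genes was 651, and 1280 with a pseudocount of 0.1 (764 higher and 516 lower). Leaving out each sample gave 646 to 701. For the Pol III machinery, 17 genes passed the adjusted p, and 10 to 12 when a sample was left out: 11 without NC sample 1, 11 without NC sample 2 and 10 without NC sample 3. For the protein partners, 12 passed, and 8 to 10 when a sample was left out. For the Pol II RNAs without a poly(A) tail, 65 passed, all higher, and 58 to 64 when a sample was left out. Without OV-BRCA1 sample 1, 63 were higher and 1 lower, and without OV-BRCA1 sample 3, 59 were higher and 1 lower. These fits hold 5 samples in place of 6. Of the 28 genes named here as called in the 2 protein lists, 16 kept the call under every alternative run for them and 12 lost it under at least 1, and none changed direction. With no filter on low values, 12 genes of the machinery (7 higher and 5 lower) and 8 partners (6 higher and 2 lower) passed. Of the Pol II RNAs, 58 were then higher and 1 lower. The calls of POLR2F, GTF3C6, MAF1, POU2F1, POP5, MEPCE, CDK9, TROVE2, RNA5S6, SNORD3A, SNORD3C and HIST2H2BF were lost without the filter. Median-of-ratios scaling ended the calls of POLR3E, GTF3C6, MEPCE and CDK9, and scaling to nuclear coding genes those of MAF1 and POU2F1. The other scalings moved the median of all genes by at most 0.03.

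The labels number the samples 1 to 3 in each group. Deviations of same-numbered samples correlated at -0.02, 0.03 and 0.01 over genes, and those of differently numbered samples at -0.05 to 0.03. No pairing by number was thus seen, and whether same-numbered samples were prepared together is not stated. With the replicate number as a block, 646 DEGs were found over all genes, 11 genes of the Pol III machinery passed (7 higher and 4 lower), 11 partners and 63 of the Pol II RNAs.

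Depth limits the short members, RNA5S6, RNU5A-1 and the NC values of RMRP and RPPH1, which rest on few estimated fragments. The U1 genes RNU1-1, RNU1-4, RNVU1-7 and RNVU1-18, of 164 bases, were low as well, at 0.261 to 0.308 FPKM in NC sample 1. Their fragments are not given here.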
